A study of Rattus norvegicus with 6 samples.

Results

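The genes described here carry names of BTB domain families, and their RNA was measured in pull-downs from GH4C1, an established line of rat pituitary cells that make growth hormone and prolactin. Members were the rows of the deposited count table whose gene name begins with Zbtb, Kctd, Klhl, Btbd or Kbtbd followed by a digit, and which held 10 or more counts in at least 3 of the 6 libraries. Of 115 rows with such a name, 91 met the count rule, among 32883 rows in all and 11678 rows of any name that met it. They comprised 39 Zbtb, 23 Klhl, 16 Kctd, 9 Btbd and 4 Kbtbd genes. Members were thus chosen by gene name and by count level, and their counts in the 6 libraries decided who entered.

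All 6 libraries came from wild-type GH4C1 cells treated with psoralen, an agent that crosslinks paired nucleic acid strands, and the aim of the study was to find RNAs bound directly to the long noncoding RNA Neat1. RNA was retrieved with oligo pool A (3 libraries) or oligo pool B (3 libraries). The oligo sequences, their positions on the target and the role of either pool as a control are not given in the sources used here, and input RNA was not analysed here. The question open to these files is therefore which BTB gene RNAs were recovered in different amounts by the pools. The labels do not say whether the libraries came from separate cultures, so p-values measure only the spread between these libraries, which may be technical.

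The BTB domain is a protein fold through which proteins pair with themselves and with partners. In the Zbtb proteins it sits ahead of C2H2 zinc fingers that bind DNA, and these proteins are mostly transcriptional regulators that draw in corepressor complexes. Klhl and Kbtbd proteins join the BTB domain to kelch repeats, and many of them, like a number of Kctd and Btbd proteins, hold substrates for ubiquitin ligases built on cullin-3. Zbtb20 has a known part in this tissue, since it is needed for the development of lactotrophs.

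Library totals lay between 1826390 and 3685899 counts, and the members together held between 0.256% and 0.358% of them, with a median of 39 to 62 counts per member and library. A count of 0 allows up to 3 counts, or 0.814 to 1.64 CPM (each count divided by the total of its library and scaled up), for counting error only. The lineage list summed to between 4503 and 5244 CPM with pool A and between 28340 and 35380 CPM with pool B, most of it Chgb, a secretory granule protein, at means of 3742 and 31690 CPM. Of its other genes, Prl had means of 713 CPM (pool A) and 445 CPM (pool B), Gh1 170 and 166 CPM and Pou1f1 158 and 204 CPM, while Ghrhr was listed at 0. Among markers of other pituitary cells, Tshb, Fshb, Pax7 and Sox9 were listed at 0, and the gonadotroph and thyrotroph markers summed to between 10.3 and 16.0 CPM with pool A and between 43.25 and 49.2 CPM with pool B, nearly all of it Lhb. The corticotroph and melanotroph markers summed to between 7.12 and 17.25 CPM with pool A and between 6.81 and 8.21 CPM with pool B. The folliculostellate and stem cell markers summed to between 42.6 and 51.8 CPM with pool A and between 19.1 and 32.2 CPM with pool B, nearly all of it Sox2. Fibroblast markers summed to between 17.6 and 24.5 CPM with pool A and between 9.54 and 17.8 CPM with pool B, with Lum at 0. Markers of blood and endothelium summed to between 9.49 and 16.9 CPM with pool A and between 9.46 and 23 CPM with pool B. The part of these markers in the differences below was not tested.

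Of the 91 members, 88 could be tested, and 40 of them passed edgeR's quasi-likelihood test with a Benjamini-Hochberg adjusted p below 0.05. Pool A recovered more of 14 members and pool B more of 26. Over all 11582 tested rows 40.6% differed, 18.6% being higher in pool A and 22% with pool B, so the 45.5% of members that differed lay close to the background, with 15.9% higher in pool A and 29.5% higher in pool B. For 50 of the 88 members the CPM ranges of the pools were apart (56.8%), where 49.1% of all tested rows showed this. Differences past the threshold and of more than 2-fold were found for 11 of the 88 members higher in pool A and for 18 higher in pool B. Among all 11582 tested rows, 1289 (11.1%) and 1649 (14.2%) showed such a difference. The fitted log2 fold change, pool A over pool B, is called the log2 ratio from here on. It ran from -2.82 for Zbtb22 to 3.09 for Zbtb8a, with a median of -0.13 where all tested rows had 0.015. That median moved to 0.040 without pool A replicate 2 and to -0.008 without pool B replicate 1.

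**Figure D1:**
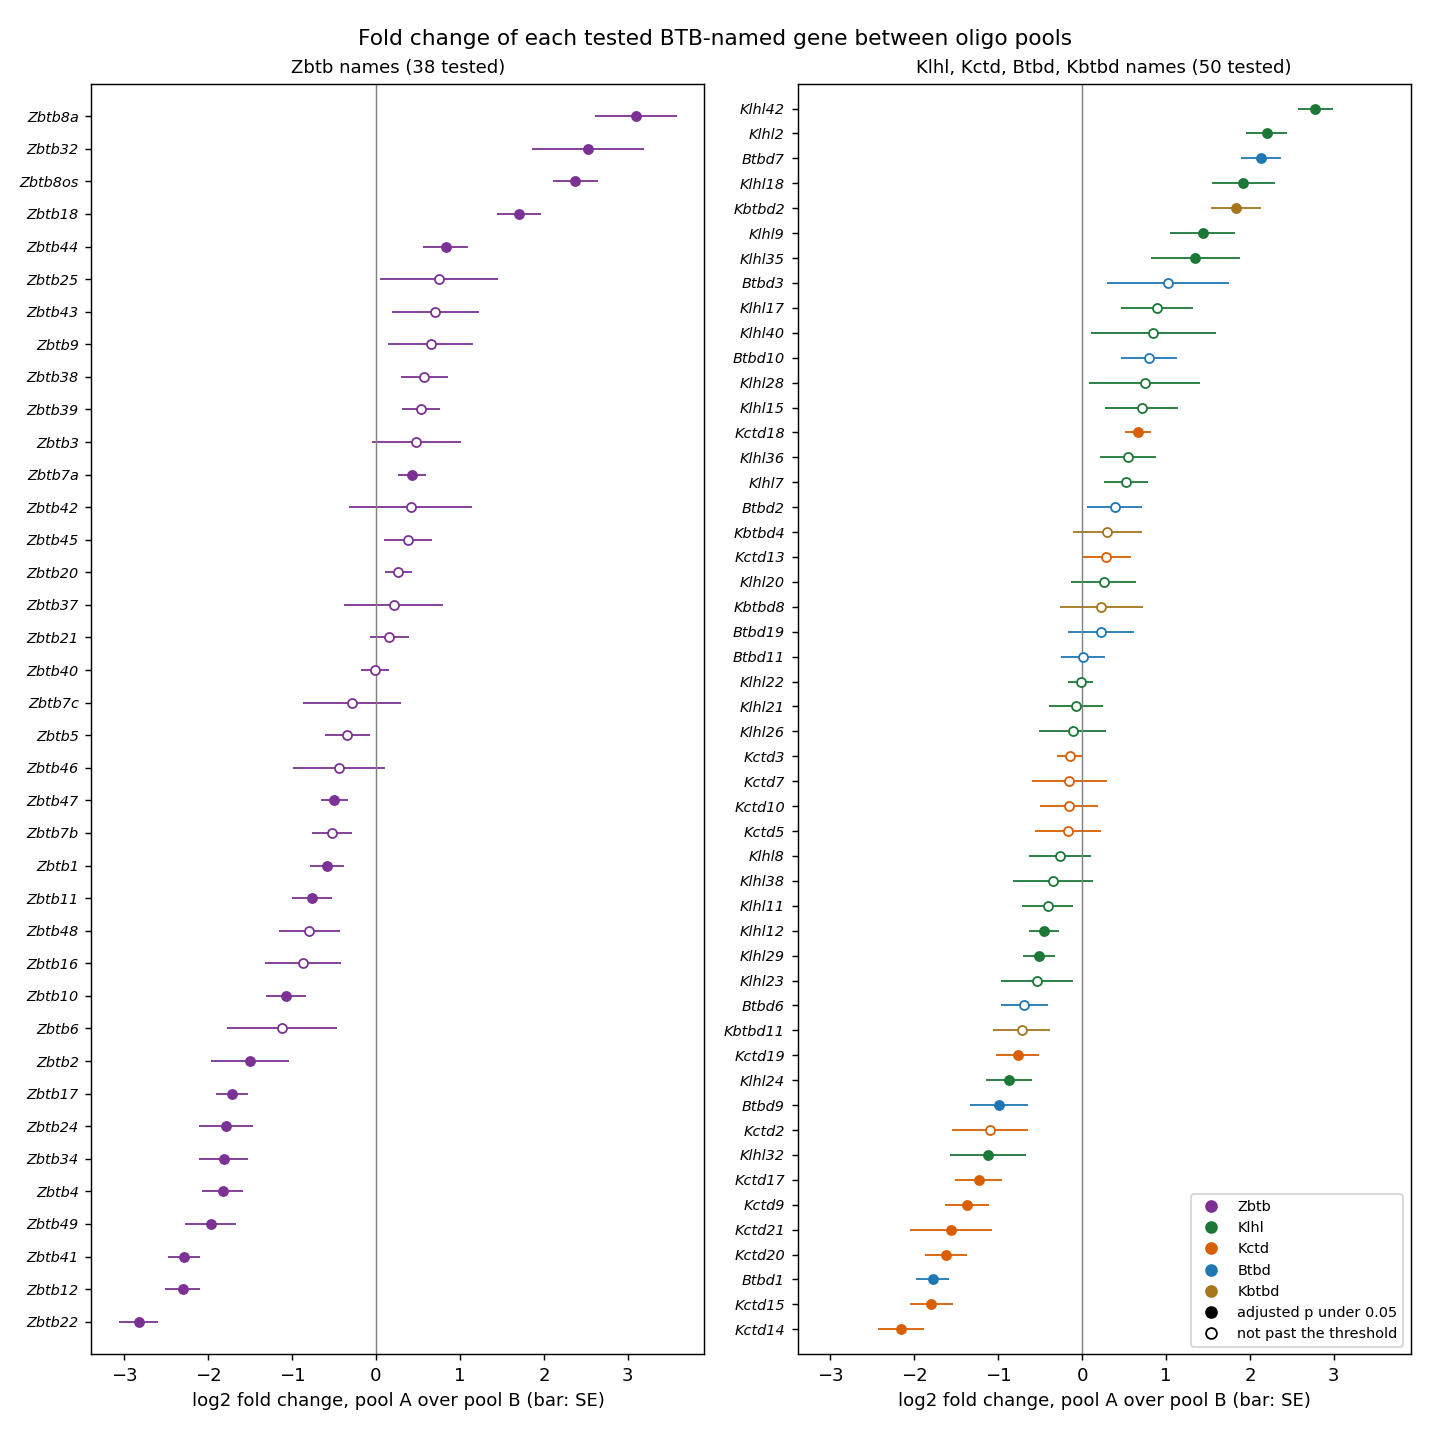
The log2 ratio of pool A over pool B is plotted for the 88 tested members, Zbtb genes on the left and the other name families on the right, with the SE as bars and filled points for an adjusted p under 0.05. Filled points lie at both ends of each panel, from Zbtb22 at -2.82 to Zbtb8a at 3.09 on the left and from Kctd14 at -2.15 to Klhl42 at 2.78 on the right.

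Divided by name, the Kctd genes held the highest share of members higher in pool B. Of 38 tested Zbtb genes, 13 (34.2%) were higher in pool B and 6 (15.8%) with pool A. Of the 50 tested members without Zbtb names, 13 (26%) were higher in pool B and 8 (16%) with pool A. The Kctd genes, which carry no zinc fingers, had 7 of 14 (50%) higher in pool B and 1 (7.14%) with pool A. Among the Klhl genes the counts were 4 of 23 (17.4%) and 5 (21.7%), and only Klhl32 of the 4 was more than 2-fold higher in pool B. Of the Btbd genes 2 of 9 were higher in pool B and 1 with pool A, and of the Kbtbd genes 1 of 4 was higher in pool A while the other 3 did not pass. Differences between families were not tested.

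Median log2 ratios were -0.31 for Zbtb, -0.091 for the members without Zbtb names, -0.93 for Kctd, 0.26 for Klhl, 0.22 for Btbd and 0.27 for Kbtbd. The Zbtb median rested on single libraries, at -0.043 without pool A replicate 3 and -0.11 both without pool A replicate 2 and without the first library of pool B. The Klhl median ran from 0.12 (without pool A replicate 1) to 0.52 (without pool A replicate 3) with single libraries removed, and was -0.045 among rows with a mean of 50 counts. The Btbd median ran from -0.21 (without pool A replicate 3) to 0.36 (without pool A replicate 1). The Kbtbd median ran from 0.081 to 0.38, lowest with pool A replicate 3 removed and highest with pool B replicate 3 removed. The median of the members without Zbtb names turned to 0.089 without pool A replicate 2 and to 0.046 without pool B replicate 2. With single libraries removed, the Kctd median lay between -0.91 and -0.48, the latter when pool B replicate 3 was removed. It was -0.47 with no filter on low counts, where 2 more Kctd genes enter. The Klhl calls with pool B fell from 4 to 1 without pool A replicate 2 or pool A replicate 3, and to 2 without any other library. Klhl had 5 calls with pool A and 1 with pool B under upper-quartile factors, 4 and 2 with the replicate block, and 4 with pool A alone against a null of a 1.5-fold change. All tested rows went from 2154 with pool A and 2546 with pool B to 2515 and 2251 under upper-quartile factors. They had 2085 and 2476 with the replicate block, and 1156 and 1521 against the 1.5-fold null. With single libraries removed, all tested rows higher in pool B numbered between 2194 and 2390. Scaling by upper-quartile factors moved the median of all tested rows by 0.10 and scaling by total counts moved it by -0.14. Against the median of all tested rows, the Zbtb median lay at -0.33 under TMM and under both of these scalings.

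As a comparison for the zinc finger part of the Zbtb proteins, 207 tested genes named Zfp or Znf had 104 members (50.2%) higher in pool B and 21 (10.1%) higher in pool A. Their median log2 ratio was -0.68, and their lower quartile was -2.03 where that of the Zbtb genes was -1.11. The lowest value among Zfp and Znf genes was -5.77, below the -2.82 of Zbtb22. Summed over the 39 Zbtb genes, the libraries of pool A held 1115, 993 and 1186 CPM and those of pool B held 1705, 1867 and 1751 CPM, with no overlap. Zbtb41, Zbtb12, Zbtb22 and Zbtb17, picked after seeing the data, made up most of that gap. Their means were 36.7, 30.2, 15.95 and 39.9 CPM with pool A and 201, 166, 125 and 146 CPM with pool B. The 52 members without Zbtb names summed to 1762, 1564 and 1756 CPM with pool A and to 1664, 1712 and 1766 CPM with pool B, where the ranges overlapped. The sums in this paragraph are scaled by library totals, without the TMM factors of the fit (0.903 to 1.014 with pool A, 1.04 to 1.066 with pool B). Applying those factors would raise pool A against pool B, so this overlap depends on the scaling. Within those 52, the Kctd genes summed to 461.8, 424.7 and 497.5 CPM with pool A and to 670.1, 674 and 733.2 CPM with pool B, and the Klhl genes to 977.5, 769.2 and 822.5 CPM against 660.2, 679.5 and 698.8 CPM. Neither overlapped, but the Klhl difference rested on Klhl42: without it the Klhl genes summed to 700.2, 567.1 and 661.9 CPM with pool A and to 620, 643.9 and 670.8 CPM with pool B, which overlap, a sum chosen after seeing the data. In these bulk libraries fewer cells holding an RNA, less of it per cell and weaker retrieval by a pool cannot be told apart.

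**Figure D2:**
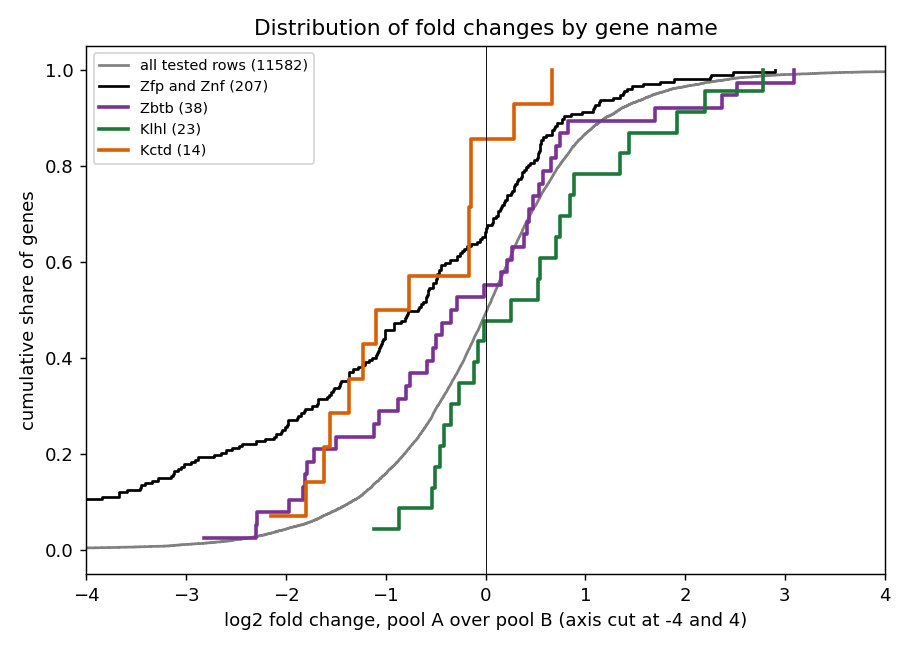
Cumulative shares of tested genes are drawn against the log2 ratio of pool A over pool B, for all tested rows and for the Zfp and Znf, Zbtb, Klhl and Kctd names, with the horizontal axis cut at -4 and 4. The Kctd curve lies to the left with a median of -0.93, the Zbtb curve crosses that of all rows, and the Klhl curve lies to the right with a median of 0.26.

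The promoters of the members with the largest fold in each direction, among Zbtb and among the other names, are shown because these genes define the ends of the range. They are the 250 bases before the start in RefSeq on GRCr8, which are DNA outside the pulled-down RNA. Capitals mark matches on either strand to GGGCGG (the GC box), to CCAAT (the CCAAT box) or to TATAAA (the TATA box). The Zbtb22 window is chr20:4971382-4971631 (minus strand), the Zbtb8a window chr5:147005687-147005936 (minus strand) and the Klhl42 window chr4:181734982-181735231 (plus strand), and Kctd14 had no entry.
Zbtb22: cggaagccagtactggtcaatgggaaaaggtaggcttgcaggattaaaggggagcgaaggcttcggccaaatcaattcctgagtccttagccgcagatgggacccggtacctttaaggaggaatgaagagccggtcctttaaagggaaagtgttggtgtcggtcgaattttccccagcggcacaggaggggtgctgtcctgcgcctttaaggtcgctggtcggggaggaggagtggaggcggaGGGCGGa
Zbtb8a: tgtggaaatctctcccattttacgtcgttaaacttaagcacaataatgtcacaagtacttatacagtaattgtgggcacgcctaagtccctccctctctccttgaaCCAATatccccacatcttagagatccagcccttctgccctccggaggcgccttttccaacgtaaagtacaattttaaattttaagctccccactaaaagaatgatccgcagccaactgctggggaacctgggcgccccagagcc
Klhl42: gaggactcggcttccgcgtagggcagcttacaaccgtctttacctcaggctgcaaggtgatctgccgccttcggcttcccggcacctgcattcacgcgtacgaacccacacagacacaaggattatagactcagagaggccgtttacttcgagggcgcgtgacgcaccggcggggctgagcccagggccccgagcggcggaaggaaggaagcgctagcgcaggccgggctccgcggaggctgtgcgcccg
The Zbtb22 window held 1 match to GGGCGG and 57.2% G and C, that of Zbtb8a 1 match to CCAAT and 47.6%, and that of Klhl42 no match and 65.6%. Of the 91 members, 77 had an entry. GGGCGG was found in 58.4% of them against 32.4% of 27457 promoters of the same length, CCAAT in 24.7% against 34.3%, and TATAAA in 7.79% against 13.1%. Those 27457 were not limited to genes that met the count rule, so the sets are unlike. Median G and C was 59.2% in the members and 52.0% in the 27457. Between members higher in pool A and with pool B, the share with GGGCGG was 7 of 13 and 10 of 20. A match is a description of letters and was given no test.

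Among Zbtb genes that were higher in pool B, Zbtb22 (ENSRNOG00000000476) had the largest fold. It held 12.5, 19.4 and 16.0 CPM with pool A and 90.7, 158 and 125 CPM with pool B. Every pool B library lay far above every pool A library, with means of 15.9 ± 3.4 and 125 ± 34 CPM (SD, n = 3 each). The log2 ratio was -2.82 ± 0.23 (SE), a 7.09-fold difference, with an edgeR adjusted p of 9.13e-11. Fold changes come from the fit with TMM scaling, so they differ somewhat from ratios of CPM.

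Zbtb12 (ENSRNOG00000000418) held 40.2, 21.0 and 29.5 CPM with pool A and 165, 138.5 and 195 CPM with pool B. Zbtb41 (ENSRNOG00000011137), the Zbtb member with the highest mean CPM over the 6 libraries, held 48.3, 26.1 and 35.8 CPM with pool A and 169, 233 and 201 CPM with pool B. The pools were well apart for both genes, with log2 ratios of -2.30 ± 0.20 and -2.29 ± 0.19 (SE) and edgeR adjusted p-values of 4.11e-10 and 1.3e-10. Zbtb17, known as Miz-1, is a partner of Myc at promoters. It held 46.9, 25.3 and 47.4 CPM with pool A and 138, 144.5 and 154 CPM with pool B, a log2 ratio of -1.72 ± 0.19 (SE).

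Zbtb4, which binds methylated CpG sites, held 13.6, 15.4 and 21.96 CPM with pool A and 59.99, 76.7 and 63.2 CPM with pool B. Zbtb24, mutated in an immunodeficiency syndrome with unstable centromeres, held 10.9, 7.12 and 8.16 CPM against 34.1, 27.9 and 38.6 CPM. For both genes the lowest pool B library exceeded the highest pool A library, and the log2 ratios were -1.83 and -1.79. Zbtb49 held 8.14, 6.33 and 11.3 CPM with pool A and a narrow 37.8, 37.8 and 36.3 CPM with pool B. Zbtb34 held 11.7, 7.91 and 10.04 CPM against 35.1, 43.2 and 38.2 CPM. These Zbtb49 and Zbtb34 values gave log2 ratios of -1.97 and -1.81 without overlap. Zbtb2 was the least certain of this group, at 6.24, 1.98 and 8.47 CPM against 13.0, 17.5 and 22.3 CPM. Its log2 ratio was -1.50 ± 0.46 (SE; edgeR adjusted p = 0.0108), and the call was lost without pool A replicate 2 or pool B replicate 3 (adjusted p up to 0.0753).

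The smaller Zbtb differences in favour of pool B were those of Zbtb10 (log2 ratio -1.07), Zbtb11 (-0.76), Zbtb1 (-0.58) and Zbtb47 (-0.50). Only the Zbtb10 call held in every alternative run for single genes. The calls of Zbtb11, Zbtb1 and Zbtb47 were lost in 2, 4 and 5 of them, all on the loss of a library except that upper-quartile scaling also ended those of Zbtb1 and Zbtb47.

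With pool A, Zbtb8a (ENSRNOG00000008300) was recovered most in excess, at 15.2, 19.4 and 24.8 CPM against 1.70, 4.38 and 1.89 CPM with pool B. The pool B values rested on 5, 8 and 5 counts, and each pool A library held at least 49. Its log2 ratio was 3.09 ± 0.49 (SE; edgeR adjusted p = 8.21e-06), and it passed the count rule through the pool A libraries alone. The preceding row of the table is Zbtb8os, whose name marks the opposite strand of the same locus. Zbtb8os encodes archease, a cofactor of the tRNA ligase complex, and has neither a BTB domain nor zinc fingers, so it matched the rule by name only.

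Zbtb8os held 51.0, 64.9 and 69.96 CPM with pool A and 17.7, 7.67 and 12.9 CPM with pool B, a log2 ratio of 2.37 ± 0.27 (SE; edgeR adjusted p = 4.27e-08). The pair moved the same way, with no overlap between the pools for either gene. In RefSeq on GRCr8 the genes lie on opposite strands of chromosome 5 and do not overlap, and how the counting treated strand is not given in the sources used here. Leaving Zbtb8os out gave 13 members higher in pool A and a Zbtb median of -0.34.

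Zbtb32, a repressor of cytokine genes in lymphocytes, held 12.2, 5.14 and 10.04 CPM with pool A and 1.36, 0.547 and 3.03 CPM with pool B. The pool B values were 4, 1 and 8 counts, so the log2 ratio of 2.52 ± 0.67 (SE) had little depth behind it and ran from 2.18 to 3.25 over the alternatives, with edgeR adjusted p of 0.0033. It too passed the count rule through pool A alone. Zbtb18, a repressor active in neuronal development, had more counts, at 57.2, 39.5 and 43.6 CPM with pool A and 19.1, 15.3 and 13.2 CPM with pool B. The ranges stayed apart, with a log2 ratio of 1.70 ± 0.26 (SE; edgeR adjusted p = 6.22e-06). Zbtb44 (log2 ratio 0.83) and Zbtb7a (0.43) were also higher in pool A, but their calls were lost in 2 and 8 alternatives. The CPM ranges of Zbtb44 overlapped.

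The lactotroph factor Zbtb20 did not differ past the threshold, and is singled out here after its values were seen. It held 111, 131 and 127 CPM with pool A and 117, 130 and 93.1 CPM with pool B, a log2 ratio of 0.26 ± 0.16 (SE; edgeR adjusted p = 0.203). In all, 19 Zbtb genes did not pass, with log2 ratios between -1.12 (Zbtb6) and 0.75 (Zbtb25). Zbtb6 passed the count rule through pool B alone, on 18, 14 and 11 counts against 8, 6 and 9, with an edgeR adjusted p of 0.187. Zbtb40 lay nearest to no change, at -0.011 ± 0.17 (SE).

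**Figure D3:**
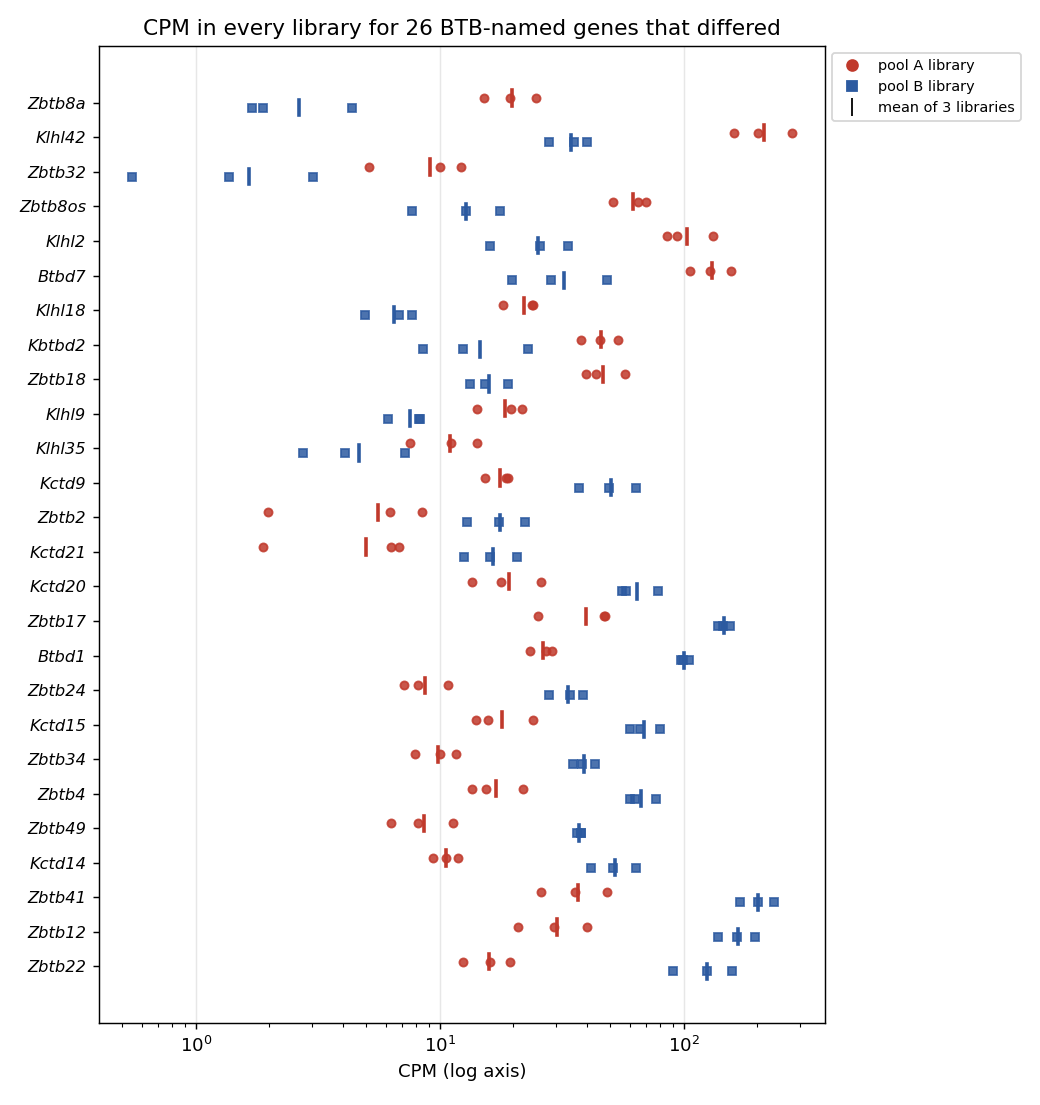
Each library's CPM is plotted on a log axis for the 26 members named for a fold change of at least 2 with library ranges apart, with circles for pool A, squares for pool B and a vertical line at each mean of 3 libraries. The 11 genes at the top, from Zbtb8a to Klhl35, are higher in pool A and the 15 below, from Kctd9 to Zbtb22, are higher in pool B; the absence of overlap was a condition for naming them.

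Of the kelch adaptors, Klhl42 (ENSRNOG00000001844), which directs the microtubule severing enzyme katanin to degradation, showed the largest difference. It held 277, 202 and 161 CPM with pool A and 40.2, 35.6 and 28.0 CPM with pool B. All pool A libraries exceeded all pool B libraries, with means of 213 ± 59 and 34.6 ± 6.2 CPM (SD, n = 3 each), and replicate 1 of pool A was the highest. The log2 ratio was 2.78 ± 0.21 (SE), 6.86-fold, with an edgeR adjusted p of 1.09e-11. Klhl2, an adaptor for WNK kinases, held 132, 93.3 and 85.02 CPM with pool A and 16.0, 25.7 and 33.7 CPM with pool B. Its log2 ratio was 2.20 ± 0.24 (SE; edgeR adjusted p = 2.17e-08).

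Klhl18 and Klhl9 were also higher in pool A. Klhl18, an adaptor for Aurora A, held 23.9, 18.2 and 24.2 CPM with pool A and 6.82, 7.67 and 4.92 CPM with pool B. Klhl9, which helps to move Aurora B during mitosis, held 19.5, 14.2 and 21.6 CPM against 6.13, 8.21 and 8.32 CPM. The libraries did not overlap for either gene, with log2 ratios of 1.92 ± 0.38 and 1.44 ± 0.39 (SE) and edgeR adjusted p-values of 0.000154 and 0.00381. Klhl21 did not pass, at -0.072 ± 0.32 (SE) with an edgeR adjusted p of 0.888, and is named after its values were seen. Klhl22, also active in mitosis, had the highest mean CPM of the Klhl genes and a log2 ratio of -0.013 ± 0.15 (SE). It held 142, 116 and 173 CPM with pool A and 159, 152 and 168 CPM with pool B, which overlapped. Klhl35 held 11.1, 14.2 and 7.53 CPM with pool A and 4.09, 2.74 and 7.19 CPM with pool B, where the nearest libraries almost met. Its edgeR adjusted p of 0.0438 rose above the threshold in 7 alternatives, up to 0.191.

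Kbtbd2, an adaptor that lowers the regulatory subunit of phosphoinositide 3-kinase, held 45.3, 37.97 and 53.6 CPM with pool A and 8.52, 23 and 12.5 CPM with pool B. The pools stayed apart although pool B replicate 2 was high, with a log2 ratio of 1.83 ± 0.30 (SE; edgeR adjusted p = 1.31e-05). Btbd7, a gene of epithelial branching, held 106, 156 and 128 CPM with pool A and 28.6, 19.7 and 48.4 CPM with pool B. Its log2 ratio was 2.13 ± 0.24 (SE; edgeR adjusted p = 2.74e-08).

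The Klhl genes higher in pool B differed less. Klhl24, which controls the turnover of keratin, had a log2 ratio of -0.87, Klhl29 of -0.51 and Klhl12, an adaptor for the coat protein Sec31, of -0.45. Klhl32 had -1.12 ± 0.45 (SE; edgeR adjusted p = 0.0493), and its adjusted p exceeded the threshold in 9 alternatives and reached 0.225. The calls of Klhl12 and Klhl29 were lost in 8 and 6 alternatives, and that of Klhl24 without pool A replicate 3. No Klhl call in favour of pool B therefore held throughout the alternatives run for single genes, whereas those of Klhl42, Klhl2, Klhl18 and Klhl9 in favour of pool A did.

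Most Kctd differences favoured pool B. Kctd14 (ENSRNOG00000012494) held 10.6, 11.9 and 9.41 CPM with pool A and 41.6, 51.5 and 63.9 CPM with pool B. The pool A libraries were close together and far below all pool B libraries, with a log2 ratio of -2.15 ± 0.28 (SE), 4.45-fold, and an edgeR adjusted p of 3.2e-07. Kctd15, an inhibitor of AP-2 in neural crest cells, held 15.7, 24.1 and 14.1 CPM with pool A and 59.99, 66.25 and 79.8 CPM with pool B. Kctd20 held 13.6, 17.8 and 26.04 CPM against 57.9, 55.9 and 78.7 CPM. These genes had log2 ratios of -1.79 ± 0.25 and -1.62 ± 0.25 (SE) without overlap.

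Kctd9 held 18.7, 19.0 and 15.4 CPM with pool A and 63.7, 37.2 and 49.6 CPM with pool B, a log2 ratio of -1.37 ± 0.26 (SE). Kctd17, an adaptor in the assembly of primary cilia, had a log2 ratio of -1.23. Kctd21, which lowers histone deacetylase activity in Hedgehog signalling, held 6.78, 6.33 and 1.88 CPM with pool A and 16.0, 12.6 and 20.8 CPM with pool B. Its log2 ratio was -1.56 ± 0.49 (SE), and the call was lost without pool A replicate 3 or pool B replicate 3. Kctd19 (-0.77) was lost without pool A replicate 1 or pool B replicate 1.

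Against this direction, Kctd18 was higher in pool A, at 136, 130 and 123 CPM against 90.7, 94.2 and 87.8 CPM. Replicates were tight in both pools. At a log2 ratio of 0.66 ± 0.16 (SE), Kctd18 passed the threshold (edgeR adjusted p = 0.00107). That call held in every alternative run for single genes. Against a null of a 1.5-fold change no Kctd call in favour of pool A was left. Kctd3, the Kctd gene with the highest mean CPM, held 157, 112 and 177 CPM with pool A and 169, 196 and 181 CPM with pool B and did not pass, with a log2 ratio of -0.15 ± 0.15 (SE). The others that did not pass lay between -1.10 (Kctd2) and 0.29 (Kctd13).

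Btbd1, which binds topoisomerase I, was the Btbd gene with the largest difference in favour of pool B. It held 27.1, 23.3 and 28.9 CPM with pool A and 99.2, 97.5 and 105 CPM with pool B, with little spread in either pool. The log2 ratio was -1.78 ± 0.19 (SE; edgeR adjusted p = 1.42e-08). Its close paralog Btbd2 held 23.6, 18.2 and 59.6 CPM with pool A and 20.1, 41.6 and 24.2 CPM with pool B. Those Btbd2 ranges overlapped, and its log2 ratio was 0.39 ± 0.33 (SE; edgeR adjusted p = 0.378). Whether the pair differ from each other was not tested, and how reads shared by paralogs were counted is not given in the sources used here. Btbd9 (-0.99) was higher in pool B, a call lost without 4 of the 6 libraries in turn.

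Tested rows next to a member in the table's own order were compared with it. Of the 80 neighbours of the 40 members that differed, 18 (22.5%) also differed in the same direction, as did 24.0% of the 9399 neighbours of all rows that differed. Zbtb8os and Zbtb8a account for 2 of the 18. Zbtb34 lay beside Zbtb43, with log2 ratios of -1.81 and 0.70, of which the latter did not pass, and Zbtb22 lay between Tapbp (0.87) and Daxx (-0.12).

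Other BTB genes, outside the name rule, were taken from lists. Of 9 rows for BTB zinc finger genes with other names, 8 were tested, 5 were higher in pool B (62.5%, where all tested rows had 22%) and the other 3 did not pass, with a median of -0.76. Mynn held 34, 11 and 25 counts with pool A and 310, 215 and 288 counts with pool B. Means of 7.14 ± 2.51 and 111 ± 6 CPM (SD, n = 3 each) gave a log2 ratio of -3.77 ± 0.24 (SE; edgeR adjusted p = 7.18e-13), beyond that of any Zbtb member. Patz1 followed with 20, 11 and 20 counts against 64, 72 and 120 and a log2 ratio of -2.57 ± 0.36 (SE). Gzf1 had -1.20, lost without pool B replicate 1 (adjusted p = 0.116 in edgeR), and Bcl6, the repressor of germinal centre B cells, had -0.85. Zfp131 and Zfp161 of this list also belong to the Zfp names above.

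Of 23 BTB genes without C2H2 fingers and with other names, 21 were tested, 7 were higher in pool B and 2 with pool A, with a median of -0.007. These are 33.3% and 9.52%, where all tested rows had 22% and 18.6%. Rhobtb1, whose protein carries BTB domains, held 2036, 1199 and 1667 counts with pool A and 109, 80 and 100 counts with pool B. Its log2 ratio of 3.86 ± 0.15 (SE; edgeR adjusted p = 4.53e-17) exceeded that of every member. Its family member Rhobtb3 was higher in pool B (-1.29 ± 0.20, SE), and Rhobtb2 did not pass (0.38 ± 0.33, SE); both are named after their values were seen. Lgals3bp, a secreted glycoprotein, had 2.77 on pool B counts of 7, 1 and 5. Lztr1, an adaptor for Ras proteins, had -1.66 and Spopl, an adaptor of the Spop family, had -1.58.

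Genes of the ligase that the adaptors serve lay near the background. Of 24 rows for cullin-3 ligase and neddylation genes, 22 were tested, 5 were higher in pool A and 5 with pool B (22.7% each, where all tested rows had 18.6% and 22%), with a median of 0.28. Cops5, the subunit of the COP9 signalosome that removes Nedd8 from cullins, held 131, 90 and 103 counts with pool A and 539, 359 and 561 counts with pool B. The log2 ratio was -2.37 ± 0.17 (SE; edgeR adjusted p = 4.43e-12). Uba3, of the enzyme that activates Nedd8, had -1.27 and Rbx1, the RING subunit of the ligase, had -1.23, while Dcun1d5, a Nedd8 ligation factor, had 1.47. Cul3 itself held 518, 411 and 496 counts against 372, 189 and 351, a log2 ratio of 0.48 ± 0.15 (SE; edgeR adjusted p = 0.0144), and is named after its values were seen.

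Corepressor genes moved in both directions. Of 11 listed, 10 were tested, 3 were higher in pool A and 2 with pool B, so 50% differed where 40.6% of all tested rows did. Hdac2 held 262, 158 and 193 counts with pool A and 58, 38 and 56 with pool B, a log2 ratio of 1.80 ± 0.22 (SE). Hdac3, the deacetylase of the Ncor complexes, had 0.76. Gps2 and Tbl1x, subunits of the same complexes, had -1.04 and -0.71. These lists have few members, and none was tested as a list.

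**Figure D4:**
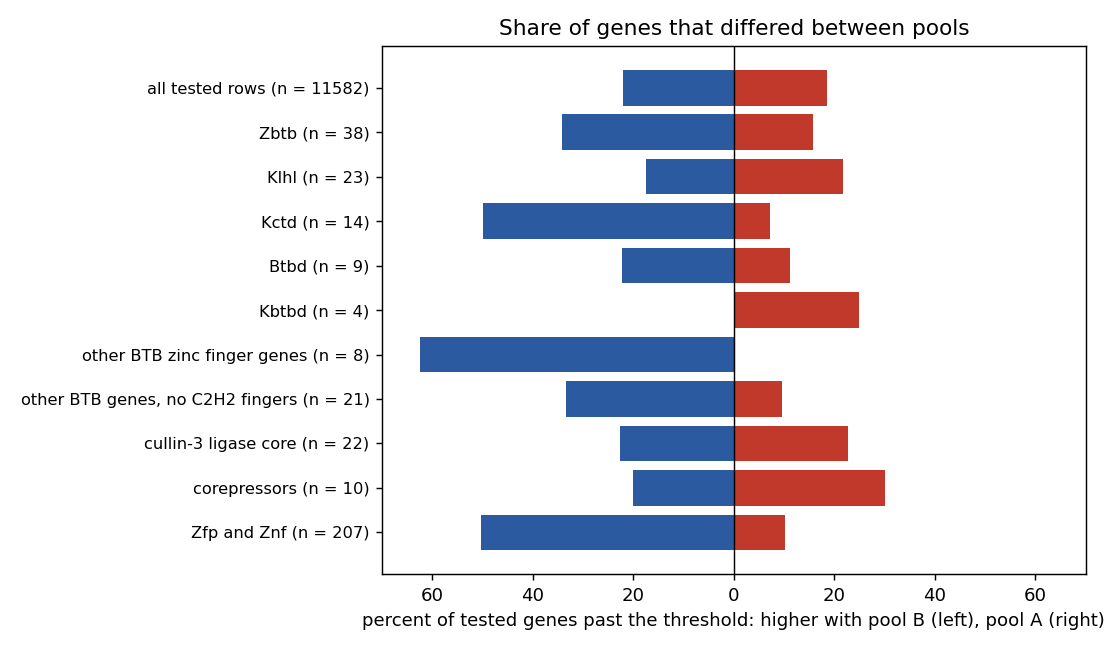
Bars give the percent of tested genes past an adjusted p of 0.05, higher in pool B to the left and higher in pool A to the right of 0, for all tested rows, the name families and the lists, with the number tested beside each name. All tested rows lie at 22% and 18.6%, Zbtb at 34.2% and 15.8%, Kctd at 50% and 7.14%, and Zfp and Znf at 50.2% and 10.1%.

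At the edge of the count rule, 72 members held 10 or more counts in all 6 libraries and 9 did so in exactly 3. Just inside were Zbtb26, with counts of 11, 11 and 4 with pool A and 17, 3 and 6 with pool B, Kctd6, with 21, 2 and 11 against 15, 5 and 3, and Kctd4, with 11, 3 and 14 against 14, 1 and 0. These 3 members were not tested, because they did not pass edgeR's filter on low counts. Just outside was Kbtbd3, the only gene with 10 counts in exactly 2 libraries, at 11, 13 and 5 against 0, 3 and 0. With 10 counts in at least 2 libraries of each pool there were 81 members. Of these, 12 (14.8%) were higher in pool A and 26 (32.1%) with pool B. All tested rows, not held to that condition, had 18.6% and 22%. Of the 24 rows left outside, 9 were listed at 0 in every library, namely Kctd1, Klhl1, Klhl4, Klhl6, Klhl13, Klhl14, Klhl31, Klhl34 and Zbtb33, the last of which encodes Kaiso, a factor that binds methylated DNA. Kbtbd6 names 2 of the rows outside, and no member shares its name with another row.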

How the data were processed

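The libraries, strand-specific per the labels, hold RNA retrieved from psoralen-treated GH4C1 cells, 3 for each oligo pool. The authors deposited raw counts per gene. STAR and featureCounts are named in the submitters' processing notes, while versions, build, annotation and strand setting are not given in the sources used here. The deposited mean signal per pool equals the mean of the 3 counts and was not used. Members and gene lists were chosen with earlier results of these data known. A marker gene of the lineage list is not reported here.

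Counts were fitted with edgeR 4.0.16 in R 4.3.3 (TMM, filter by pool, quasi-likelihood test, pool as the only term, all 6 libraries), with two-sided p-values adjusted by Benjamini-Hochberg over 11582 rows. Standard errors derive from the fold change and the F statistic. The test was checked on simulated counts. Alternatives used other scalings, filters, DESeq2 1.42.0, limma 3.58.1 (voom), a replicate block and each library left out.

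Named members passed an adjusted p of 0.05 with CPM ranges apart and at least a 2-fold change, up to 15 per direction, plus per name family the gene with the highest mean CPM and the one with the largest fold, up to 4 genes past the threshold per list, and rows at the edge of the count rule. Smaller differences past the threshold, members singled out below it and neighbouring rows were added after their values were seen.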

Additional observations from a re-analysis of the deposited data

How the results depend on the processing

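Of 631 refits of the 40 members that differed, 569 kept direction and call and 62 lost the call, in 14 members, while 26 members kept it in every refit; the stricter p and the 1.5-fold null were run for counts only. Members higher in pool A (14 reported) numbered between 10 and 16 over all alternatives, and between 12 and 14 with single libraries removed. Those higher in pool B (26 reported) numbered 15 at an adjusted p under 0.01 and 17 against a 1.5-fold change, which are stricter by construction, and between 19 and 25 with single libraries removed. They numbered 31 with total counts (12 in pool A) and 21 with upper-quartile factors (16 in pool A), while all tested rows moved the same way, from 2546 (2154 in pool A) to 2922 (1709) and 2251 (2515).

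The median log2 fold change of all tested BTB members was -0.268 with total counts, -0.026 with upper-quartile factors and -0.386 among rows with a mean of 50 counts, and between -0.098 and 0.040 with single libraries removed. The median log2 fold change of Zbtb members was -0.455, -0.211 and -0.501 under those settings, and between -0.371 and -0.043. The median log2 fold change of BTB members without Zbtb names lay between -0.099 and 0.089 with single libraries removed. The cause was not tested.

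Deviations of same-numbered libraries correlated at 0.0409, -0.0195 and 0.02, which does not mark the numbers as pairs. With the replicate block, 12 BTB members were higher in pool A, and 24 with pool B. Leaving out Zbtb8os was chosen after seeing the data. Depth limits members with few counts, such as Zbtb32 and Zbtb8a with pool B.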
